A study of Mus musculus with 70 samples.

Results

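Interferon-stimulated genes (ISGs) were followed in regulatory T cells (Tregs) of 6 mouse tissues. The 51 genes form a fixed list of mouse symbols, matched to the gene IDs of the count table. They are 51 of 53465 gene IDs, and all 51 were among the 13173 protein-coding genes that reached 1 CPM (counts per 1000000) in 10% of the libraries. RNAseq libraries were made from small pools of sorted Tregs of 5 male mice, and the same mice gave all 14 groups. These were the ST2+ and ST2- fractions of CD44hi effector Tregs (eTregs) in blood, spleen, lungs, visceral adipose tissue (VAT), colon and skin, and CD44lo CD62L+ central Tregs in spleen and lungs. ST2, encoded by Il1rl1, is the receptor for IL-33. All mice carried the allele Foxp3tm4(YFP/icre)Ayr, which puts YFP and Cre under the Foxp3 locus, on a B6.129(Cg) background (Jackson Laboratory stock, /J), and the labels name no treatment. Mice 1 to 5 were 16.6, 17.1, 17.4, 18.1 and 18.6 weeks old.

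Most pools held 220 cells, but ST2+ pools of blood held 55 to 220, ST2- pools of VAT 93 to 220 and ST2- pools of blood 166 to 220. Each group had 5 libraries except ST2+ of blood with 4 and ST2+ of colon with 3, since 3 of the 70 libraries held fewer than 1000000 counts and were left out. Totals of the other 67 ran from 1304560 to 2759926 counts (median 2039002). Foxp3, the lineage factor of Tregs, had counts in all 67 (105.1 to 413.7 CPM, median 167) and Cd8a in 2. Il1rl1 had a median of 870.9 CPM in the 27 ST2+ libraries (lowest 230, highest 1614) and 4.239 CPM in the 40 ST2- libraries (lowest 0, highest 194.6). In each tissue every ST2+ library lay above every ST2- library. The lowest ST2+ library was from spleen, where the ST2- libraries reached 3.3154 CPM, and the highest ST2- library was from skin, where the ST2+ libraries were at 1365.5 CPM or more. In such bulk libraries a lower CPM can mean that fewer cells express a gene or that each cell holds less of its RNA, and these cannot be told apart.

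Type I interferons bind the receptor of Ifnar1 and Ifnar2 and act through a complex that holds STAT2 and IRF9 and binds the interferon-stimulated response element (ISRE). Interferon gamma binds the receptor of Ifngr1 and Ifngr2, and promoters of its target genes hold the gamma-activated site (GAS). The induced genes include antiviral effectors of the IFIT, OAS and Mx families, sensors of foreign nucleic acid, guanylate-binding proteins (GBPs) and immunity-related GTPases (IRGs) that act on intracellular pathogens, and the immunoproteasome. T cells, Tregs among them, also express many of these genes at rest.

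Parts of the promoters of 6 members, among them a modifier, an effector, a GTPase, factors and an immunoproteasome subunit, are printed to show the letters of the ISRE and GAS motifs, which 4 of the 6 hold. Of 51 members, 38 had a promoter in the RefSeq table of GRCm38.p6, taken here as 250 bases before the start site. All 250 bases were searched, but each line below prints only a part of them. It holds the matches with short flanks, or the last 80 bases where there was no match. The ISRE core was searched as GAAANNGAAA and the GAS as TTCNNNGAA, on both strands. Capitals mark the matches, each line reads 5′ to 3′ on the gene's strand, and neighbouring ISRE matches may overlap.
Isg15, which encodes a ubiquitin-like modifier, minus strand of chr4:156200860-156200911, 3 overlapping ISRE matches: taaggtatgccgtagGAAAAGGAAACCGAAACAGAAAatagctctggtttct
Ifit3, an antiviral effector, plus strand of chr19:34583358-34583431, 2 ISRE matches: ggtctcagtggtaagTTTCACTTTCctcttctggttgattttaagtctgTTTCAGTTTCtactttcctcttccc
Gbp2, a GTPase, plus strand of chr3:142620589-142620628, 1 ISRE match: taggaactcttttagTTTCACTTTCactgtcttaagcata
Irf1, a transcription factor, plus strand of chr11:53769909-53769947, 1 GAS match: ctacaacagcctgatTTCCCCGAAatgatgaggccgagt
Irf7, a transcription factor, minus strand of chr7:141266425-141266504, no match: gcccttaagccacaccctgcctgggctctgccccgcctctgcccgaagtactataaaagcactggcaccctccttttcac
Psmb9, an immunoproteasome subunit, minus strand of chr17:34187331-34187410, no match: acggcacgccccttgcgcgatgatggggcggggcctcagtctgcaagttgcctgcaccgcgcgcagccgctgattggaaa
The ISRE core was found for 17 of the 38 genes (44.7%), against 3.46% of the 27025 genes in the table. The 38 genes had 44 windows, since 6 had 2 windows each, and a gene was counted if either window held a match. The GAS was found in 10 (26.3%), against 8.13%. A match describes the letters of the window and not a bound site.

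In splenic ST2- eTregs, per length of exon, Ifi27l2a had the highest level of the 51 (446.14 CPM per kilobase), followed by Slfn2 (256.38), Igtp (213.16), Ifi47 (166.24) and Ly6a (154.56). The lowest were Ifi44 (3.30), Oas3 (1.594) and Oas2 (0.475). Isg15 was 29th at 38.18 CPM per kilobase. Igtp and Ifi47 are IRGs and Slfn2 a Schlafen gene, Slfn1 had rank 8, and the other genes of these families among the 51 lay further down, from Irgm1 at rank 17 to Slfn5 at rank 40. Without division by length, Ifi44 averaged 20.2 CPM, Oas3 11.3 CPM and Oas2 2.12 CPM, where 1 CPM in the median library is about 2 counts.

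The median of the 51 genes gave the first view of the groups. For each library it was taken over log2 CPM, after the mean of the 14 group means was subtracted for each gene. It was highest in central Tregs of spleen (0.64 ± 0.081, SD, n = 5), ST2- eTregs of blood (0.56 ± 0.10, n = 5) and of spleen (0.53 ± 0.12, n = 5), and ST2+ eTregs of spleen (0.52 ± 0.14, n = 5). These neighbours differed by less than their spread. Lungs ST2- (0.36 ± 0.056, n = 5), central Tregs of lungs (0.29 ± 0.18, n = 5) and blood ST2+ (0.29 ± 0.28, n = 4) were intermediate. VAT ST2- (0.02 ± 0.13, n = 5), lungs ST2+ (-0.13 ± 0.16, n = 5), colon ST2- (-0.26 ± 0.19, n = 5), colon ST2+ (-0.33 ± 0.025, n = 3) and skin ST2- (-0.36 ± 0.37, n = 5) followed. VAT ST2+ (-0.65 ± 0.21, n = 5) and skin ST2+ (-0.83 ± 0.39, n = 5) were lowest. The 5 libraries of VAT ST2+ lay between -0.89 and -0.37 and those of spleen ST2+ between 0.42 and 0.75, so these groups did not overlap.

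**Figure D1:**
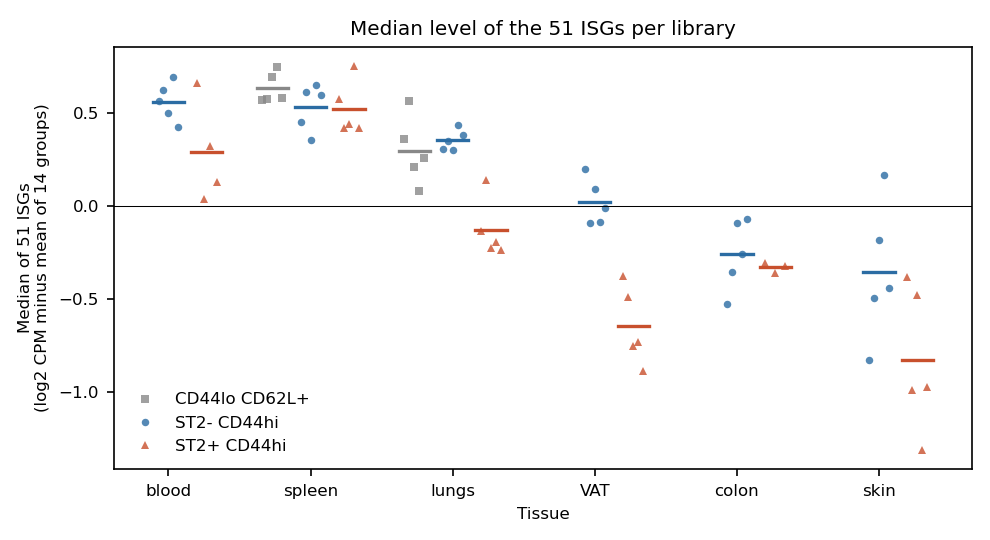
Median of the 51 ISGs in each library (log2 CPM minus the mean of the 14 groups), by group, with 1 point for each library and a bar for the group mean. Central Tregs of spleen have the highest group mean (0.64) and ST2+ eTregs of skin the lowest (-0.83).

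Whether ISG levels differed among tissues was tested first with no reference tissue. In each test a gene was called when edgeR's quasi-likelihood p, adjusted by Benjamini-Hochberg over the 13173 genes, was no more than 0.05, and comparisons of pairs of groups also required a fold change of at least 1.5. Among ST2- eTregs of the 6 tissues 36 of 51 ISGs (70.6%) differed, where 43.2% of all genes did. Among ST2+ eTregs 46 (90.2%) differed, where 47.5% of all genes did. Bst2 (adjusted p = 0.6362) and Ifit3 (adjusted p = 0.1304) were among those that did not pass in ST2- eTregs. Isg15 passed in ST2- eTregs (adjusted p = 0.02427) and not in ST2+ eTregs (adjusted p = 0.1144). Each tissue was then compared with spleen, the lymphoid organ of the series. These comparisons share the spleen libraries. Blood and spleen were not digested with enzymes, whereas lungs, VAT, colon and skin were, lungs and VAT by 1 protocol and colon and skin by others. CD4+ T cells were enriched with a kit before sorting in spleen and lungs only. So tissue and preparation cannot be told apart. A list of 12 genes known to respond to digestion and stress, with Junb or Fos its most abundant gene and none at 0, summed to means of 1417.8 to 1940.6 CPM in the groups of blood and spleen, 3638.4 to 4844.6 CPM in lungs, 4001.5 and 7336.6 CPM in ST2- and ST2+ eTregs of VAT, and 6089.2 to 7864.6 CPM in colon and skin. Its part in the results below was not tested.

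In ST2- eTregs of skin 24 ISGs fell against spleen and 1 rose, and in those of colon 21 fell and 1 rose. The shares of all genes that fell were 13.6% in skin and 2.32% in colon, and the shares that rose were 17.3% and 8.77%. In VAT 7 fell and 1 rose (1.38% and 4.59% of all genes), in lungs 2 fell (0.676%) and 0 rose (3.45%), and in blood 0 fell (1.67%) and 3 rose (1.91%). The median log2 difference of the 51 was -1.03 in skin, -0.86 in colon, -0.55 in VAT, -0.17 in lungs and -0.01 in blood, where the median over all genes stayed within 0.046 of 0.

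Schlafen genes, named for their role in T cell quiescence, had the smallest adjusted p among the ISGs in ST2- eTregs of colon and skin. Slfn1 (plus strand of chr11:83116849-83122670, 1 of a cluster of related genes) was at 195, 235, 189, 238 and 193 CPM in splenic ST2- eTregs of mice 1 to 5. It was at 49.99, 28.1, 55.1, 83 and 53.1 CPM in those of colon and at 52.1, 22.2, 17.9, 23.8 and 15.83 CPM in those of skin. Every colon and skin library lay below every spleen library. The fall was 3.83-fold in colon (log2 -1.94 ± 0.28, SE, adjusted p = 2.902e-07) and 7.68-fold in skin (log2 -2.94 ± 0.29, adjusted p = 2.025e-12). Slfn2 fell by 1.05 and Slfn8 by 1.32 on the log2 scale in colon, and in skin Slfn2 fell by 1.53, Slfn5 by 2.49 and Slfn8 by 1.52. Of Slfn8, 11.5% of the 58-base stretches of its transcripts also occur in other genes, so its counts are less certain.

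Of the 5 factors and feedback genes, Irf9, the DNA-binding subunit of the type I interferon complex, fell in VAT, colon and skin (log2 -0.83 ± 0.21, -1.15 ± 0.22 and -1.26 ± 0.22). Usp18, which removes ISG15 from proteins and damps the type I receptor, was at 83.4, 182, 63, 203 and 136 CPM in splenic ST2- eTregs and at 33.7, 2.54, 10.2, 14.4 and 26.6 CPM in those of VAT. It was at 0, 6.07, 1.28, 44.7 and 1.17 CPM in skin, where mouse 4 stood above the other mice. The VAT and skin libraries did not overlap with spleen, and the falls were 7.38-fold (log2 -2.88 ± 0.72, adjusted p = 0.00582) and 12.8-fold (log2 -3.68 ± 0.77, adjusted p = 0.0001286). In colon Usp18 fell 4.22-fold, with overlap in 1 or more libraries. Irf7, the amplifier of type I interferon production, fell in skin (log2 -0.73 ± 0.25) and was at -0.33 in VAT and -0.40 in colon. Irf1, an early target of interferon gamma, was at -0.36, -0.17 and -0.08 in VAT, colon and skin. Isg15 was at 23.6, 32.6, 27, 23.2 and 38 CPM in spleen and at 50.9, 37.1, 28.1, 49.6 and 58.6 CPM in skin, a log2 difference of 0.66 ± 0.38 that did not pass (adjusted p = 0.172). Members of 1 role thus lay on both sides of 0.

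Among the 8 IFIT and OAS effectors, 3 fell in colon and the same number in skin. Ifit1 fell by 2.52 and 2.76 on the log2 scale, Ifit2 by 1.49 and 1.83 and Oas1a by 1.496 and 1.59. Ifit3 was at -2.47, -2.76 and -1.11 in VAT, colon and skin and was called in none, and 47.7% of its stretches are shared with related genes (53.7% for Oas1a). Of 14 other antiviral effectors, 4 fell in colon and 6 in skin, among them Trim30a, the proapoptotic Xaf1 and Dtx3l, a ubiquitin ligase that pairs with Parp9, in both. Parp9 fell by 1.80, Rtp4 by 1.56 and Ifi44 by 5.16 in skin. Of the 4 nucleic acid sensors, Ifih1 (MDA5) fell by 1.49 in colon and 1.80 in skin, Zbp1 by 1.26 and 1.03, and Dhx58 by 2.51 in skin.

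Of the 11 GBP and IRG GTPases, 4 fell in VAT, 5 in colon and 3 in skin. Irgm1, a regulator of the other IRGs, was at 344, 408, 328, 390.4 and 349.7 CPM in splenic ST2- eTregs, at 171, 218, 153, 199 and 177 CPM in those of lungs, and at 222, 235, 139, 124 and 129 CPM in those of VAT. No lungs or VAT library reached the lowest spleen library. The falls were 1.94-fold in lungs (adjusted p = 0.04197) and 2.1-fold in VAT (log2 -1.07 ± 0.30, adjusted p = 0.01499). Iigp1 fell 4.25-fold in VAT and 4.48-fold in colon, Ifi47 fell by 0.84 in VAT and in colon and by 1.17 in skin, and Gbp2 by 0.81, 1.03 and 0.98 in VAT, colon and skin. Of the immunoproteasome, Psmb9 fell by 0.60 in colon and 0.90 in skin, and Psmb10 by 1.08 in skin. Tap1, a subunit of the peptide transporter, fell by 0.65 in colon. Psmb9 and Tap1 share sequence, as do Parp9 and Dtx3l, Igtp and Irgm2, and Gbp4 and Gbp9, and reads of shared stretches cannot be assigned with certainty. The third subunit gene, Psmb8, lay between 208.5 and 389.9 CPM in VAT, colon and skin and was called in none of them.

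Ly6a was the 1 ISG that rose in ST2- eTregs of VAT, colon and skin. It encodes Sca-1, a surface marker of activated T cells that interferon induces. In splenic ST2- eTregs it was at 175, 241, 170.4, 197 and 148 CPM, against 324, 448, 496, 336 and 436 CPM in colon and 356, 485, 504, 603 and 393 CPM in skin, with no overlap. It rose 1.85-fold in VAT (adjusted p = 0.0006227), where mouse 1 overlapped with spleen, 2.2-fold in colon (adjusted p = 5.452e-06) and 2.56-fold in skin (adjusted p = 2.776e-08). In lungs the difference was 0.53 on the log2 scale and did not pass. Ly6a has near-identical relatives, and 15.1% of its stretches are shared. Bst2, the tetherin that holds virus particles at the cell surface, was at 0.02 to 0.29 in blood, lungs, VAT and colon and at -0.03 in skin, and was called in none.

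Blood was the only other tissue in which ISGs rose. Ly6a (log2 0.75 ± 0.18, adjusted p = 0.007698), the antiviral restriction factor Samd9l (log2 0.73 ± 0.18, adjusted p = 0.008026) and Slfn1 (log2 0.86 ± 0.26, adjusted p = 0.04583) were higher in each ST2- blood library than in each spleen library. Irf1 was lower by 0.44 on the log2 scale (adjusted p = 0.0146), which is below a 1.5-fold change. Markers of other cells were higher in blood as well. The 4 erythroid genes, led by Hbb-bs in blood with none at 0, summed to a mean of 162.15 CPM in blood ST2- (2.1935 to 447.62) against 2.1577 CPM in spleen ST2-, and the macrophage and monocyte list averaged 62.595 against 13.007 CPM, both with overlap. Lyz2 made up 38.558 CPM of the macrophage and monocyte mean in blood ST2-, with 5 of 11 genes at 0. The part of these markers was not tested. With mouse 3 left out 0 ISGs were called in blood and with mouse 5 left out 1 was. In lungs the 2 calls, Irgm1 and Slfn8, became 1 without mouse 2 or 3 and 0 without mouse 4 or 5. In VAT 13 were called without mouse 1 and 4 without mouse 3, 4 or 5. When lungs, which were digested as VAT was but enriched for CD4+ T cells before sorting, replaced spleen as the reference, 0 of 51 ISGs were called in ST2- eTregs of VAT (1.62% of all genes), a comparison added after the data were seen.

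**Figure D2:**
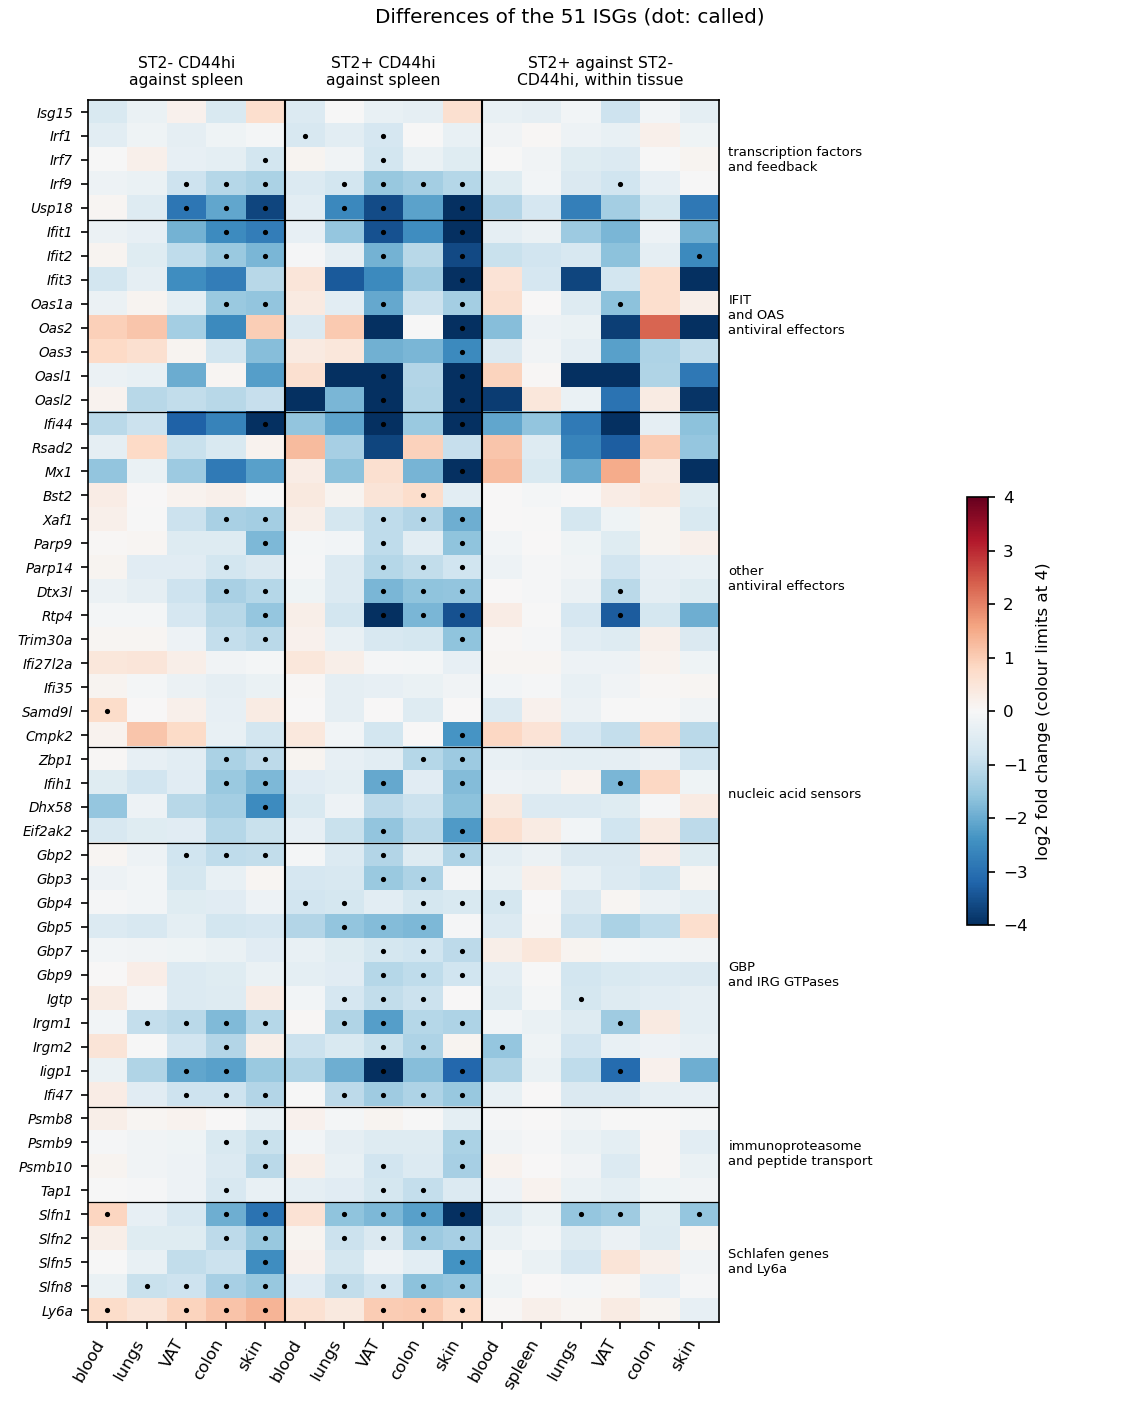
Log2 fold change of the 51 ISGs (rows, by role) in ST2- and ST2+ eTregs of each tissue against spleen and in ST2+ against ST2- eTregs of each tissue (columns). Blue is lower, red is higher, the colour scale ends at -4 and 4, and a dot marks a called gene. The falls gather in the columns of VAT, colon and skin, and Ly6a is the row called higher in all 3 in both populations.

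ST2+ eTregs were compared with spleen in the same way. In skin 35 of 51 fell and 1 rose against spleen, where 14.2% of all genes fell and 14.9% rose. In VAT 32 fell and 1 rose (5.22% and 6.10% of all genes), and in colon 19 fell and 2 rose (1.84% and 8.55%). In lungs 10 fell (1.45%) and 0 rose (3.46%), and in blood 2 fell (1.97%) and 0 rose (2.24%). The median log2 difference of the 51 was -1.36 in skin, -1.03 in VAT, -0.99 in colon, -0.53 in lungs and -0.04 in blood. In VAT 30 of the 51 had all 5 libraries below all 5 of spleen (5.42% of all genes), and in skin 33 did (13.0%). The difference between ST2+ and ST2- eTregs itself is given further on.

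The IFIT and OAS effectors were the role with the largest median fall in ST2+ eTregs of skin, where 8 of 8 fell. Their median log2 difference was -4.49, or -4.04 with genes without counts set to 3 counts over the group. Ifit1 was at 103, 40.4, 46.4, 175 and 45.9 CPM in splenic ST2+ eTregs and at 0, 10.6, 7.43, 0.834 and 0 CPM in those of skin. It fell 21.8-fold, with no overlap (log2 -4.45 ± 1.01, adjusted p = 0.0004217). Ifit3 fell 23.2-fold, from 33.7, 18.8, 4.29, 51.1 and 13.4 CPM to 0, 2.65, 0, 0 and 2.26 CPM. Ifit2 fell 12.3-fold and Oasl2 38.7-fold. In VAT 5 of the 8 fell, with a median of -3.02, or -2.60 with genes at 0 set to the same limit. In colon 0 of 8 were called in edgeR, with a median of -1.19 and 3 libraries only.

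Of 14 other antiviral effectors, 9 fell in skin, 6 in VAT and 4 in colon. Rtp4, a chaperone of membrane receptors that interferon induces (plus strand of chr16:23520291-23614222), was at 85.6, 102, 79.6, 157 and 82.9 CPM in splenic ST2+ eTregs. It was at 11.8, 13.8, 0, 0 and 5.75 CPM in VAT, at 26.4, 30.2 and 29.8 CPM in colon and at 0, 18.5, 9.29, 10.01 and 7.91 CPM in skin. No library of these tissues reached the lowest spleen library, and the falls were 16.1-fold (adjusted p = 1.617e-08), 3.54-fold (adjusted p = 0.02119) and 11.3-fold (adjusted p = 9.331e-08). Mx1, an antiviral GTPase, had no counts in any of the 5 skin libraries, and was at least 49.73-fold below its spleen mean (16.13 CPM), taking 3 counts over the group as the limit. Splenic Mx1 was itself 0 in mouse 1 and at most 33.6 CPM. In VAT Ifi44 had no counts and was at least 23.24-fold below its spleen mean (6.81 CPM) by the same limit. Oasl1, of the OAS role, was at least 36.25-fold below its spleen mean (10.62 CPM) there. These limits leave out the spread between the spleen libraries. Bst2 rose in colon, from 94, 97.6, 81.2, 95.5 and 107 CPM in spleen to 184, 127 and 156 CPM (log2 0.71 ± 0.23, adjusted p = 0.0351), without overlap.

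Usp18 was at 67.1, 80.7, 39.4, 186 and 43 CPM in splenic ST2+ eTregs, with mouse 4 apart from the rest. In VAT it was at 7.29, 28.1, 0, 0 and 0 CPM and in skin at 0.426, 0, 3.72, 3.34 and 0 CPM. Neither group overlapped with spleen, and the falls were 11.9-fold (adjusted p = 0.0006314) and 58.5-fold (adjusted p = 1.965e-06). Irf9 fell by 1.51 in VAT, 1.35 in colon and 1.16 in skin on the log2 scale. Irf1 (-0.68 ± 0.12) and Irf7 (-0.73 ± 0.25) fell in VAT and in neither colon nor skin, where Irf1 was at 0.00 and -0.29 and Irf7 at -0.28 and -0.49. Isg15 was at -0.30, -0.35 and 0.63 in VAT, colon and skin and was called in none. Of the sensors, Eif2ak2 (PKR) fell by 1.56 in VAT and 2.26 in skin, Ifih1 by 2.05 and 1.73, and Zbp1 by 1.14 in colon and 1.46 in skin.

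The GBP and IRG GTPases fell most broadly in VAT, with 10 of 11, and in colon, with 9, against 7 in skin. Iigp1 was at 234, 177, 204, 178 and 175 CPM in splenic ST2+ eTregs and at 27.6, 0.573, 0.919, 0 and 0 CPM in those of VAT, a 29.9-fold fall without overlap (log2 -4.90 ± 0.77, adjusted p = 2.065e-06). In skin it was at 0, 5.96, 68.7, 4.17 and 28.2 CPM and fell 8.9-fold. Irgm1 was at 278, 295, 288, 337 and 295 CPM in spleen and at 123, 10.9, 79.98, 52.8 and 51.8 CPM in VAT. It fell 4.61-fold in VAT (adjusted p = 1.63e-07) and 2.2-fold in colon. Ifi47 fell by 1.43, 1.22 and 1.52 in VAT, colon and skin, and Igtp by 0.99 in VAT and 0.86 in colon. Gbp2 fell by 1.17 in VAT and 1.25 in skin. Its difference in colon was -0.52, where Gbp3 fell by 1.25 and Gbp5 by 1.81.

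Slfn1 was at 153, 201, 159, 192 and 164 CPM in splenic ST2+ eTregs and at 2.98, 2.65, 24.2, 5.84 and 10.2 CPM in those of skin. It fell 18.8-fold in skin (log2 -4.23 ± 0.33, adjusted p = 3.383e-16), 4.51-fold in colon and 3.48-fold in VAT, without overlap. Slfn2 fell in all 3 tissues too, by 1.32, 1.44 and 0.59 on the log2 scale in skin, colon and VAT. Psmb9 was at 368, 361, 387, 355 and 357 CPM in spleen and at 130.5, 99.3, 212, 137 and 166 CPM in skin, a 2.42-fold fall (log2 -1.27 ± 0.13, adjusted p = 7.773e-12). Psmb10 fell by 1.34 in skin and 0.76 in VAT, and Tap1 by 0.71 in VAT and 0.95 in colon. Psmb9 was lower by 0.52 in VAT (adjusted p = 0.0033) and by 0.50 in colon (adjusted p = 0.0225), which is below a 1.5-fold change. Ly6a rose in VAT (304, 483, 376, 379 and 577 CPM, against 184, 206, 209.9, 248 and 218 CPM in spleen), in colon (370.1, 510.2 and 432 CPM) and in skin (246, 384, 377, 496 and 338 CPM). The rises were 2.02-fold, 2.05-fold and 1.75-fold, and only in skin did 1 library overlap with spleen.

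In lungs the 10 genes that fell were Slfn1, Slfn2, Slfn8, Ifi47, Igtp, Gbp4, Gbp5, Irgm1, Irf9 and Usp18, all without overlap. Slfn1 led with a 3.08-fold fall (adjusted p = 1.892e-05). In blood Irf1 fell from 513, 541, 569.8, 545 and 511 CPM to 356, 364, 281 and 352 CPM (log2 -0.63 ± 0.12, adjusted p = 0.0005261), and Gbp4 fell by 0.75. Leaving out mouse 3 gave 1 call in blood and 6 in lungs, and leaving out mouse 4 gave 4 in lungs. In colon 9 were called without mouse 3 and 12 without mouse 4, when 2 ST2+ libraries were left. With lungs as the reference, 9 of 51 ISGs were called in ST2+ eTregs of VAT, 8 of them lower (3.74% of all genes), and all 9 were among the 33 called against spleen.

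Markers of other cells moved with several of these groups, and furthest in ST2+ eTregs of colon. In ST2+ eTregs of colon the 11 genes of a macrophage and monocyte list summed to 1394.9 to 1667.9 CPM over the 3 libraries (mean 1557.5), with Lyz2 the most abundant at 521.6 CPM and none of 11 at 0, against 0 to 460.24 CPM in the libraries of other groups. The 9 genes of a dendritic cell list summed there to 2103.2 to 2364.3 CPM, with Cd74 at 818.13 CPM and none at 0. In splenic ST2+ eTregs the sums had means of 7.2887 and 326.9 CPM, with 7 of 11 and 4 of 9 genes at 0. In VAT the macrophage and monocyte list averaged 248.6 CPM in ST2+ eTregs (156.73 to 460.24, Lyz2 its most abundant gene and Itgam alone at 0), without overlap with spleen ST2+, and the CD8 T and NK cell list did not overlap either (175.77 to 322.94 against 104.44 to 120.97 CPM). The macrophage and monocyte list averaged 119.69 CPM in VAT ST2- and 111.15 CPM in colon ST2-, against 13.007 CPM in spleen ST2-. The dendritic cell list, led by Cd74 throughout, averaged 740.11 CPM in skin ST2+, and 459.09, 916.25 and 537.45 CPM in ST2- eTregs of VAT, colon and skin, against 224.2 CPM in spleen ST2-. In skin of both populations and in colon its libraries did not overlap with those of spleen. In blood ST2+ the macrophage and monocyte list averaged 114.83 CPM (52.15 to 181.25) and the erythroid list 157.39 CPM (12.772 to 306.43), against 7.2887 and 2.6618 CPM in spleen ST2+, both without overlap. Lyz2 made up 92.172 CPM of the macrophage and monocyte sum in blood ST2+, with 6 of 11 genes at 0. Cd68, its most abundant gene in spleen ST2+ (2.8563 CPM), was among those at 0. The 4 adipocyte genes had no counts in ST2+ eTregs of VAT. An epithelial list of 7 genes, with Epcam its most abundant in colon and Krt14 in skin, averaged 549.26 CPM in colon ST2+ and 307.36 CPM in skin ST2+ against 162.44 CPM in spleen ST2+. It averaged 216.62 CPM in colon ST2- and 327.88 CPM in skin ST2- against 59.992 CPM in spleen ST2-. Lists of B cell genes (4, led by Cd79b) and of stromal and endothelial genes (6, led by Dcn in colon) averaged 250.99 and 652.63 CPM in colon ST2+, with none at 0, against 97.963 and 125.17 CPM in spleen ST2+. The B cell list was lower than in spleen in skin and in lungs, without overlap in either population. In skin it was at 3.8459 to 7.6528 CPM in ST2- and 9.2903 to 29.132 CPM in ST2+ eTregs. In lungs it was at 19.571 to 51.765 CPM in ST2- and 24.792 to 56.476 CPM in ST2+ eTregs. The spleen libraries were at 73.478 to 110.24 CPM in ST2- and 63.826 to 148.89 CPM in ST2+ eTregs. The part of these cells in the ISG values of blood, lungs, VAT, colon and skin was not tested. When a colon ST2- and a skin ST2- library of more than 2 times their group's summed markers were left out, after the data were seen, no count of called ISGs moved by more than 1.5 times. Since each library was set against its own group, markers shared by a whole group stayed in. The colon ST2+ libraries, at 4856.14 to 5788.83 CPM of summed markers, were all kept. So this alternative cannot decide the part of other cells in such groups.

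Over VAT, colon and skin, 28 of 51 ISGs fell in at least 1 tissue in ST2- eTregs (14.7% of all genes) and 42 in ST2+ eTregs (17.5%). The shares of all genes that fell in all 3 tissues were 0.440% and 0.706%. In all 3 tissues 6 ISGs fell in ST2- eTregs (Irf9, Usp18, Gbp2, Irgm1, Ifi47 and Slfn8) and 12 in ST2+ eTregs (Irf9, Xaf1, Parp14, Dtx3l, Gbp7, Gbp9, Irgm1, Rtp4, Ifi47, Slfn1, Slfn2 and Slfn8). With lungs as the reference, Slfn8 in ST2- eTregs of VAT was on the other side of 0 (0.066). In both populations 7 fell in VAT (0.843% of all genes), 12 in colon (0.911%) and 22 in skin (9.25%), and the comparisons of a population share the spleen libraries. Bst2, Ifi27l2a, Ifi35, Isg15, Ly6a, Psmb8, Rsad2 and Samd9l fell in none of these tissues in either population. Most of these 8 had ample counts, with Ifi27l2a at 134.5 CPM or more, Ifi35 at 92.65 CPM or more and Samd9l at 130.9 CPM or more in every eTreg library of VAT, colon and skin.

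**Figure D3:**
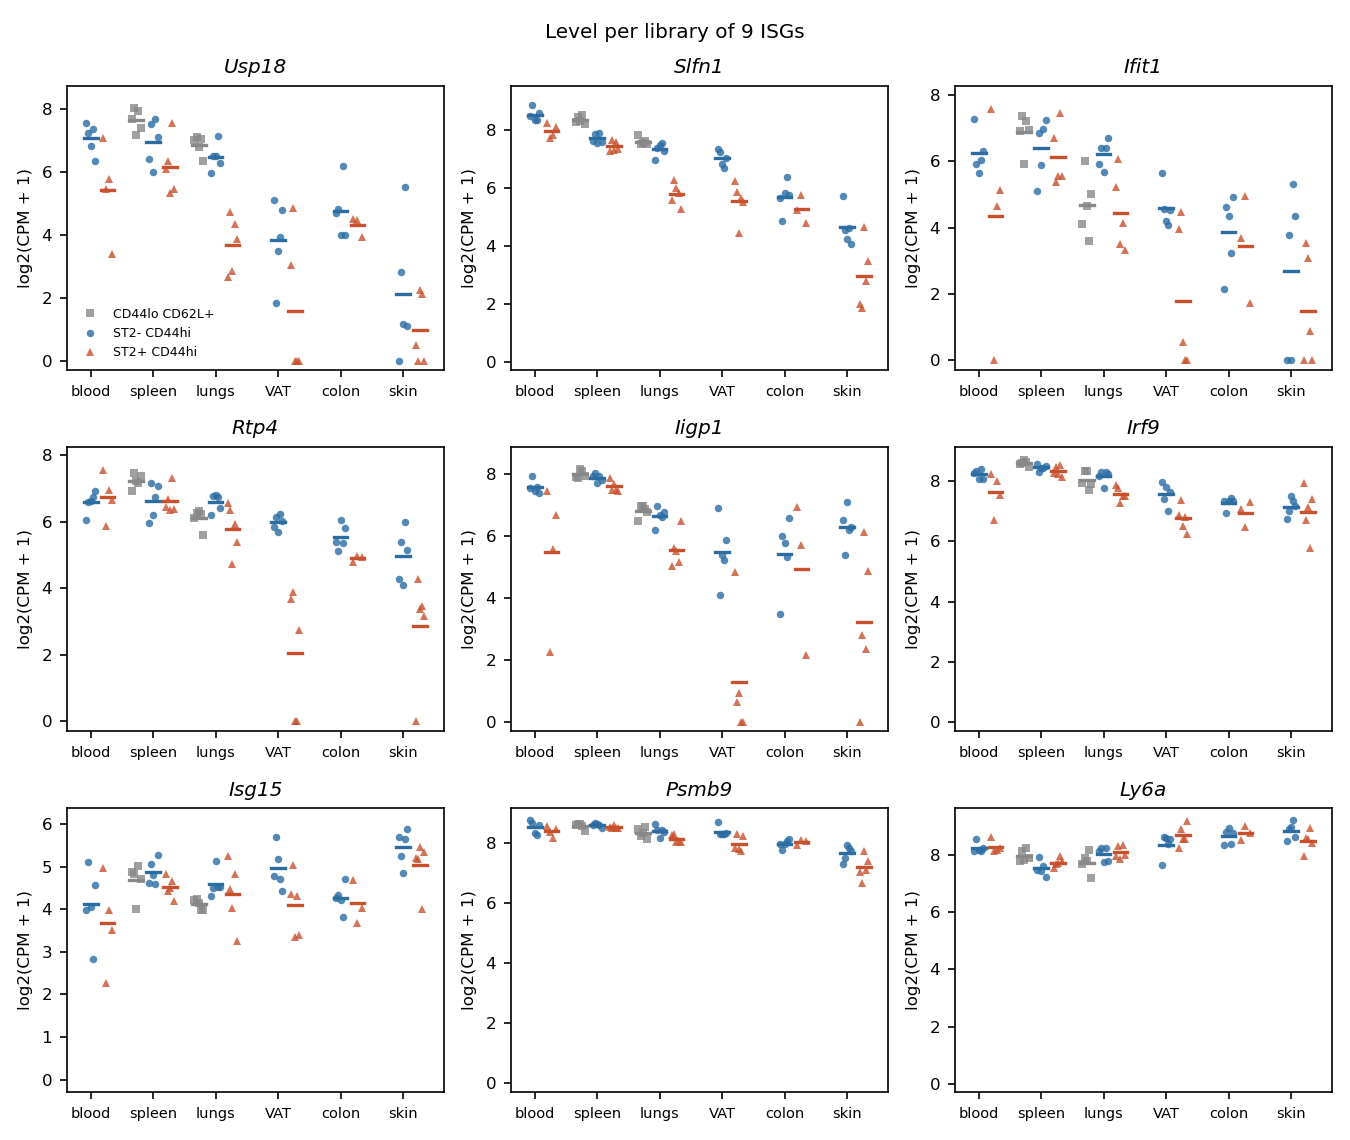
Level of 9 ISGs in each library by tissue, as log2(CPM + 1), with group means as bars. Grey squares are CD44lo CD62L+ Tregs, blue circles ST2- and red triangles ST2+ CD44hi eTregs. Usp18, Slfn1, Ifit1 and Rtp4 are low in skin, the means of Iigp1 and Irf9 are lowest in ST2+ eTregs of VAT, and Ly6a is higher in VAT, colon and skin than in spleen.

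The study asked how ST2+ eTregs differ from ST2- eTregs within a tissue. In VAT 8 of 51 ISGs (15.7%) fell in ST2+ eTregs and 0 rose, where 1.86% of all genes fell and 1.28% rose. The median log2 difference of the 51 was -0.59, and 45 of 51 had a negative one. In the other tissues 0 to 2 fell and 0 rose. The counts that fell were 2 in blood (1.72% of all genes, 2.35% rose), 2 in lungs (0.258%, 0.493% rose), 2 in skin (0.137%, 0.0911% rose), 0 in spleen (0.00759%, 0.342% rose) and 0 in colon (0.0380%, 0.0304% rose). In spleen 1 and in colon 3 had an unadjusted p below 0.05 in edgeR, near the 5.18% and 4.98% of all genes, DESeq2 called 0 in both, and voom with quality weights called 1 in spleen and 0 in colon. The order of VAT and lungs depended on the tool, since DESeq2 called 10 in VAT and 4 in lungs, and voom with quality weights 5 in VAT and 8 in lungs. In skin DESeq2 called 4 and voom 0. The medians were -0.17 in blood, -0.06 in spleen, -0.51 in lungs, where 47 of 51 were negative, -0.02 in colon and -0.38 in skin.

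Rtp4 led in VAT, at 56.5, 69.97, 50.9, 73.6 and 63.4 CPM in ST2- eTregs and 11.8, 13.8, 0, 0 and 5.75 CPM in ST2+ eTregs of mice 1 to 5. Of its stretches, 11.3% are shared with Gm45338, so its counts are less certain. All ST2+ libraries were lower, by 10.1-fold on average (log2 -3.34 ± 0.51, adjusted p = 8.002e-06). Slfn1 (161, 151, 112, 102 and 129.8 CPM against 74.6, 56.7, 20.7, 49.6 and 44.7 CPM) fell 2.67-fold and Irgm1 (222, 235, 139, 124 and 129 CPM against 123, 10.9, 79.98, 52.8 and 51.8 CPM) 2.66-fold, both without overlap. These 3 were called with each mouse left out in turn. Oas1a (3.13-fold, adjusted p = 0.00587), Iigp1 (8.44-fold, adjusted p = 0.007606), Ifih1 (3.56-fold, adjusted p = 0.0198), Irf9 (1.73-fold, adjusted p = 0.02339) and Dtx3l (2.09-fold, adjusted p = 0.02395) fell too, and each lost its call when 1 or more of the mice were left out. Without mouse 5 the count was 5. The digestion and stress genes were higher in ST2+ than in ST2- eTregs of VAT as well, as given above, and of lungs (4844.6 against 3638.4 CPM). In VAT the macrophage and monocyte markers were higher too, at a mean of 248.6 against 119.69 CPM, with overlap, and the CD8 T and NK cell list was lower, at 234.58 against 439.43 CPM, also with overlap. In lungs the dendritic cell list (228.19 to 358.44 CPM in ST2+ against 66.439 to 179.4 CPM in ST2-) and the epithelial list (103.99 to 159.16 against 27.824 to 99.686 CPM) did not overlap between the populations. The part of these lists was not tested. Of the fixed examples in VAT, Isg15 was at -0.84, Ifit3 at -0.75, Gbp2 at -0.59, Irf7 at -0.55, Psmb9 at -0.39, Irf1 at -0.28, Bst2 at 0.29 and Ly6a at 0.34, and none was called. Over the mice left out in turn, Ifit3 lay between -7.16 and 0.12.

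In lungs Slfn1 fell 2.91-fold, from 126, 167, 179.9, 185 and 153 CPM in ST2- to 46.7, 76.4, 63.2, 55.5 and 37.6 CPM in ST2+ eTregs (adjusted p = 0.0004838). Igtp, an IRG, fell 1.61-fold, from 402, 393, 402, 459.8 and 382 CPM to 276, 260.1, 227, 197 and 306 CPM (adjusted p = 0.005383). Neither overlapped, and Igtp was not called without mouse 3 or mouse 4. Ifit3 was at 12.3, 52.8, 22.7, 41.8 and 18.9 CPM in ST2- and at 0, 1.52, 4.48, 0 and 5.12 CPM in ST2+ eTregs of lungs. These did not overlap either, but the difference (log2 -3.67 ± 1.15) did not pass (adjusted p = 0.129).

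In blood Irgm2, another IRG, was at 318, 256, 133, 200.4 and 114 CPM in ST2- and 97.4, 80.6, 60.8 and 35.7 CPM in ST2+ eTregs, without overlap. It fell 2.93-fold (adjusted p = 0.000701). Gbp4 fell 1.61-fold (adjusted p = 0.01583), and was not called without mouse 1 or mouse 3. Without mouse 2 a total of 4 ISGs were called in blood. The stromal and endothelial list was lower in ST2+ eTregs of blood as well, without overlap, at 160.71 to 221.57 CPM against 236.97 to 346.58 CPM in ST2- eTregs. Pecam1 was its only gene with counts in ST2- eTregs of blood (294.56 CPM) and made up 192.54 of a mean of 193.32 CPM in ST2+ eTregs. The part of this list was not tested. In skin Slfn1 fell 2.93-fold (52.1, 22.2, 17.9, 23.8 and 15.83 CPM against 2.98, 2.65, 24.2, 5.84 and 10.2 CPM, adjusted p = 0.01628) and Ifit2 5.86-fold (15, 22.9, 6.38, 58 and 33.4 CPM against 0, 5.96, 0.619, 0.834 and 15.3 CPM, adjusted p = 0.03974). Both overlapped between the populations. The dendritic cell list (610.81 to 932.22 CPM in ST2+ against 457.86 to 593.12 CPM in ST2-) and the B cell list (9.2903 to 29.132 against 3.8459 to 7.6528 CPM) did not, and their part was not tested. Cd74 (459.56 against 347.16 CPM) and Zbtb46 (113.16 against 83.712 CPM) made up most of the dendritic cell sum. Its H2-Ab1 was higher in ST2+ (64.688 against 41.321 CPM), and H2-Aa (12.337 against 16.641 CPM) and Flt3 (0.265 against 0.387 CPM) were lower. Cd79b made up 18.281 of a mean of 19.903 CPM of the B cell list in ST2+. With the mouse as a replicate block, which pairs the libraries, 1 ISG was called in skin in place of 2. Without mouse 1, 2 or 4 the count in skin was 0, and without mouse 3 or 5 it was 1. Outside VAT, the 8 fixed examples were called in none of the tissues. Isg15 was at -0.10 to -0.41, Irf7 at -0.50 to 0.10, Irf1 at -0.20 to 0.21, Gbp2 at -0.58 to 0.28, Psmb9 at -0.43 to 0.05, Bst2 at -0.48 to 0.42, and Ly6a was at -0.34 in skin and between 0.05 and 0.21 in blood, spleen, lungs and colon.

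Whether the ST2 difference itself differed among the 6 tissues was tested in 1 interaction over all of them. In edgeR it called 1 of 51 ISGs, Rtp4 (adjusted p = 0.0029), and 1.40% of all genes, while 12 ISGs and 13.3% of all genes had an unadjusted p below 0.05. Rtp4 was at 92.6, 80.4, 25.5, 60.2 and 41 CPM in ST2+ eTregs of lungs and at 11.8 CPM or less in 4 of 5 of VAT. DESeq2 called 3 ISGs and voom with quality weights 4, and edgeR called 2 with the mouse as a replicate block, with cells sorted as a covariate, with median-of-ratios factors and with the stricter filter. Without mouse 4 or mouse 5 it called 0, and without mouse 3 it called 2.

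**Figure D4:**
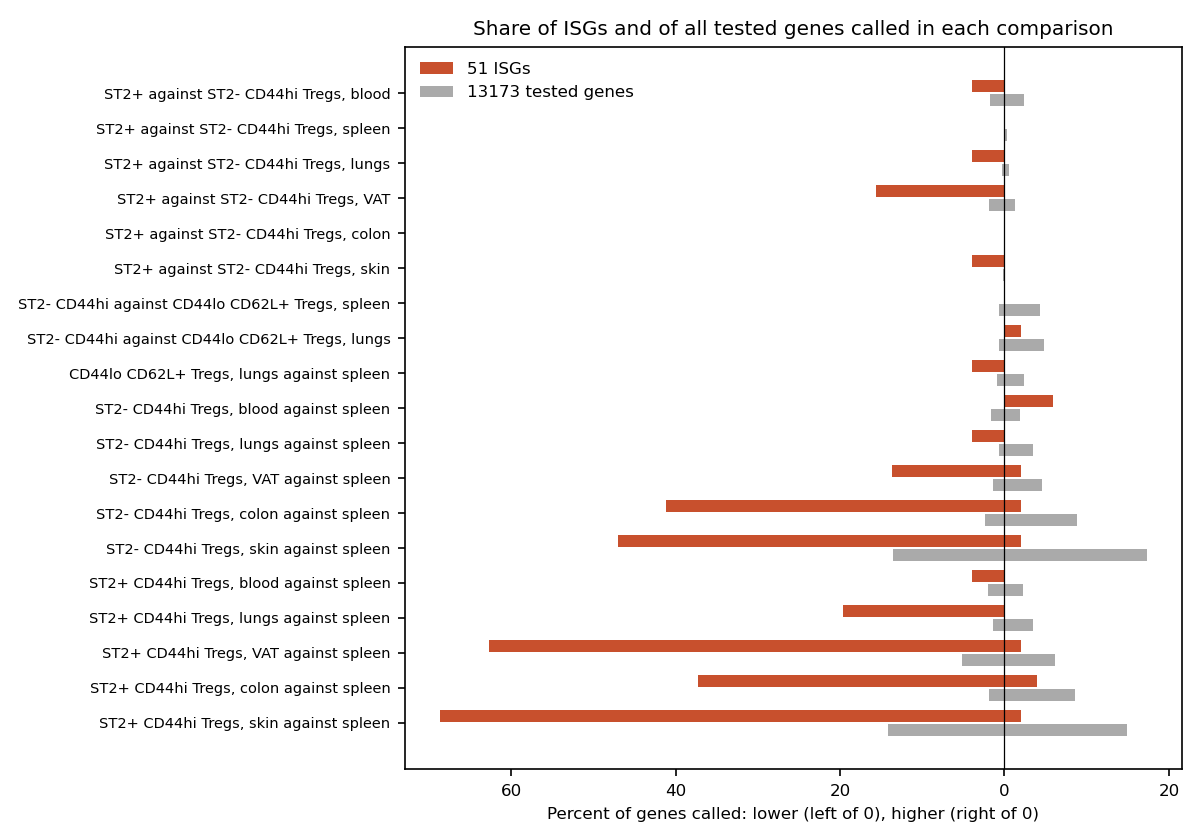
Percent of the 51 ISGs (red) and of all 13173 genes (grey) called lower (left) or higher (right) in each comparison. The ISG share called lower reaches 35 of 51 genes in ST2+ eTregs of skin, and in VAT, colon and skin the shares called lower are above those of all genes in both populations.

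Central and effector Tregs were compared in spleen and lungs. In spleen 0 of 51 ISGs differed between ST2- CD44hi and CD44lo CD62L+ Tregs by edgeR, where 4.33% of all genes rose and 0.638% fell in eTregs. An unadjusted p below 0.05 was reached by 6 of 51, not above the 15.4% of all genes. DESeq2 called 0 and voom with quality weights 8, and edgeR with the mouse as a replicate block, which pairs the libraries, called 1. In lungs 1 ISG rose in eTregs (4.85% of all genes) and 0 fell (0.714%). It was Oas1a, which makes the messenger that activates RNase L, at 12.1, 29.6, 18.7, 38.9 and 14 CPM in central and 47.9, 78.3, 47.5, 93.4 and 68.2 CPM in effector Tregs (2.94-fold, adjusted p = 0.004761). The populations did not overlap, and without mouse 5 the gene was not called. Between lungs and spleen, central Tregs showed 2 falls (0.957% of all genes) and 0 rises (2.32%). Irgm1 fell 2.7-fold, from 437, 360.0, 416, 409.5 and 395 CPM in spleen to 193, 158, 146, 98.7 and 142 CPM in lungs (adjusted p = 0.0009156), and Slfn8 fell 1.93-fold (adjusted p = 0.02562). Slfn8 was not called without mouse 2, 3 or 4. Sums of the marker lists differed here as well, several of them carried by 1 gene. The CD8 T and NK cell list was at 133.94 to 278.57 CPM in effector and 44.174 to 71.699 CPM in central Tregs of lungs, with Nkg7 and Cd8b1 the most abundant and Cd8a and Ncr1 at 0 in both. In spleen it was at 119.66 to 203.04 against 33.568 to 92.79 CPM and the dendritic cell list at 171.84 to 247.39 against 30.469 to 94.184 CPM. The B cell and epithelial lists were higher in effector Tregs of spleen and the stromal and endothelial list lower. In these effector Tregs Cd74 was 195.83 of a mean of 224.2 CPM, Cd79b 83.29 of 88.14 CPM and Pecam1 165.07 of 166.63 CPM. Epcam was 59.57 of 59.992 CPM, with 5 of 7 epithelial genes at 0. In central Tregs of spleen Pecam1 was the only stromal and endothelial gene with counts (281.86 CPM). In lungs the stromal and endothelial list, nearly all of it Pecam1, was lower, at 170.27 to 263.29 CPM in effector against 302.45 to 398.2 CPM in central Tregs. The epithelial list of central Tregs was at 47.185 to 158.1 CPM in lungs, led by Sftpc, against 5.6807 to 14.753 CPM in spleen. These lists did not overlap between the groups, and their part was not tested. The 8 fixed examples were called in none of these comparisons. Isg15 was at 0.16 between effector and central Tregs of spleen, at 0.53 in lungs, and at -0.62 ± 0.38 in central Tregs of lungs against spleen.

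Of 43 genes of the interferon pathway upstream of the ISGs, 30 passed the filter. Ifng was the only interferon among them. In the receptors and factors the tissue differences went in both directions. Ifngr1, the binding chain for interferon gamma, rose against spleen in all 5 tissues in both populations, by 0.997 to 1.66 on the log2 scale in ST2- and by 0.81 to 1.26 in ST2+ eTregs. In VAT it was at 685, 1264, 1082, 1219 and 1177 CPM in ST2- eTregs, against 329.8, 354, 290.0, 423 and 369.7 CPM in spleen, without overlap. Ifnar1 rose in lungs, VAT and skin in both populations (ST2- 1.28, 0.99 and 1.16, ST2+ 1.37, 0.83 and 1.30), and Jak2, the kinase of the interferon gamma receptor, rose by 1.98 and 2.01 in skin. With lungs as the reference, Ifngr1 in ST2+ and Ifnar1 in both populations of VAT were on the other side of 0. Tmem173 (STING), which senses cyclic dinucleotides, fell against spleen in lungs, VAT, colon and skin in both populations, and Ikbke in VAT, colon and skin. Against lungs, Tmem173 in ST2- eTregs of VAT was at 0.00084.

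Ifngr2, the second chain of the interferon gamma receptor, had a different order of tissues in the 2 populations. In VAT it was at 32.3, 61.7, 31, 41 and 16.2 CPM in ST2- eTregs and at 27.6, 91.7, 62, 79.9 and 46 CPM in ST2+ eTregs, with overlap. In blood it was at 143, 118, 93.1, 83.6 and 52.1 CPM in ST2- and at 45.2, 68.3, 23 and 45.2 CPM in ST2+ eTregs, and in lungs at 118 to 153 CPM in ST2- and 67.9 to 102 CPM in ST2+ eTregs, where the populations did not overlap. The interaction of tissue and ST2 called Ifngr2 (adjusted p = 0.0185), 1 of the 30, and did not call it without mouse 2, 3, 4 or 5.

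Against spleen, the genes of the 30 that rose in ST2- eTregs numbered 1 (blood), 3 (lungs), 4 (VAT), 2 (colon) and 6 (skin), beside falls of 2, 2, 3, 4 and 5 in that order. In ST2+ eTregs 1, 2, 3, 2 and 7 rose, with falls of 1, 2, 6, 6 and 5. The shares of all genes in these comparisons are those given for the 51 ISGs. In skin they were 17.3% higher and 13.6% lower in ST2- eTregs and 14.9% and 14.2% in ST2+ eTregs, so the counts of 6 and 5 of 30 in ST2- eTregs lay near the background. Irf4, a factor of effector differentiation rather than of interferon signalling, rose by 2.70, 2.52 and 2.51 in ST2+ eTregs of VAT, colon and skin. Tlr7, a sensor of single-stranded RNA, fell by 6.61 in ST2+ eTregs of VAT and 3.79 in ST2- eTregs of colon. Stat2, the partner of Irf9, fell by 1.28 in ST2+ eTregs of colon, and Irf2, a repressor of ISGs, by 0.59 in those of VAT. Socs1, a feedback inhibitor of interferon receptors, fell by 1.57 in ST2- and 1.30 in ST2+ eTregs of lungs and by 1.47 in central Tregs of lungs. Between ST2+ and ST2- eTregs, Ifngr2 fell in blood (-1.09 ± 0.28, adjusted p = 0.01477), and 0 of 30 were called in spleen, lungs, VAT, colon and skin in edgeR, where 3, 2, 11, 3 and 2 had an unadjusted p below 0.05 (5.18%, 10%, 17.7%, 4.98% and 8.37% of all genes). Between effector and central Tregs of spleen, Irf4 (3.55), Irf5 (2.08) and Ifng (3.92) rose and Ifngr2 (-1.08) fell, and in lungs Irf5 (3.43) rose and Ifngr2 (-1.15) fell. In central Tregs of lungs against spleen Ifngr1 (1.29), Ifngr2 (1.37) and Jak2 (0.82) rose and Socs1 and Tmem173 (-0.64) fell.

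Ifng itself was at 2.24, 19.3, 7.39, 9.12 and 9.49 CPM in splenic ST2- eTregs, at 42.8, 26.1, 79.9, 149.8 and 83.1 CPM in those of VAT and at 82, 18.2, 76.5, 79 and 170.0 CPM in those of skin. It rose by 3.02 ± 0.95 in VAT (adjusted p = 0.03862) and by 3.19 ± 0.96 in skin (adjusted p = 0.007422). In VAT all libraries lay above spleen, and in skin 1 library overlapped. In ST2+ eTregs of VAT it was at 20.7, 1.15, 0, 24.3 and 3.2 CPM. A list of 6 CD8 T and NK cell markers moved with it, at a mean of 439.43 CPM in VAT ST2- and 273.98 CPM in skin ST2- against 173.4 CPM in spleen ST2-. Nkg7 was its most abundant gene in all 3, and Cd8a was at 0 in VAT ST2- and spleen ST2-, and Ncr1 and Klrb1c in skin ST2-. Their part was not tested.

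Of 68 other known ISGs outside the 51, 62 passed the filter. In ST2- eTregs 27 of 62 fell in skin and 6 rose, 12 fell in colon and 1 rose, and 7 fell in VAT and 2 rose. In ST2+ eTregs 33 fell in skin and 3 rose, 14 fell in colon and 4 rose, and 19 fell in VAT and 4 rose. The shares of all genes are those given for the 51. Sp100 (-0.98 and -1.07 in ST2- and ST2+ eTregs) and Sp110 (-2.04 and -2.23), chromatin-associated nuclear body proteins, and the membrane protein gene Ms4a6b (-1.71 and -2.39) led in skin. Zc3hav1, the antiviral protein that binds viral RNA rich in CpG, rose by 1.32 and 0.94 in skin and by 1.06 and 1.03 in VAT, and with lungs as the reference its difference in VAT was on the other side of 0. Cd274 (PD-L1) rose by 1.503 and 1.03 in skin. Ifitm3, which blocks virus entry, rose by 6.47 in ST2+ eTregs of colon, the group with the highest macrophage markers. In ST2+ against ST2- eTregs 5 fell in VAT, among them Ms4a6b (-1.01), Ms4a4b (-1.09) and Epsti1 (-0.95), 4 fell in skin, 3 in blood and 1 in lungs. In spleen and colon 0 were called by edgeR, and 0 rose in any tissue.

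Differences among the mice were called for 5 of 51 ISGs when mouse terms were added to the group terms, a share near the 8.02% of all genes. The 5 were Trim30a, Oas1a, Ly6a, Ifi27l2a and Tap1. The count was 1 without mouse 1, 2 with all 70 libraries, 8 with DESeq2 and 12 with voom and quality weights. Trim30a, an inhibitor of innate signalling, was below the group mean in 12 of 13 libraries of mouse 1 (mean log2 difference -0.47) and above it in 14 of 14 of mouse 4 (0.33). Tap1 was above it in 13 of 13 libraries of mouse 1 (0.20). Each mouse had its own age, so mouse and age cannot be told apart.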

How the data were processed

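Tregs (live CD45.2+ CD8- CD11b- CD4+ YFP+, among other gates) were sorted into SMART-Seq v4 reactions and sequenced with NexteraXT libraries. The deposited table holds raw counts per gene that the authors made by aligning reads with STAR to GRCm38 and counting with HTSeq 0.4.1, a version from the submitters' processing notes. The sources used here give neither the counting mode nor the strand setting. The members and gene lists were chosen with earlier results of these data known. A pathway gene and a marker gene of the lists are not reported here.

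Protein-coding genes (21865, GENCODE M21) with at least 1 CPM in 10% of the 67 libraries with over 1000000 counts were tested, 13173 in all. After TMM scaling, edgeR 4.0.16 (R 4.3.3) fitted a term for each group but none for the mouse, in 19 comparisons of pairs of groups and 4 F tests. SE is the log2 fold change over the root of F. P-values of member genes were adjusted over all tested genes. CPM use TMM-scaled library sizes. Promoters came from RefSeq, and stretches of 58 bases, the read length, were matched between annotated transcripts. Fits were tested on simulated counts. Figures used matplotlib 3.10.9.

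Named were called members (up to 8 per direction by adjusted p, with further called ones for each role), 8 fixed examples (Isg15, Irf7, Irf1, Ifit3, Gbp2, Psmb9, Ly6a and Bst2), and up to 5 called genes per direction of the pathway and other ISG lists.

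Same-numbered libraries come from 1 mouse. In 27 pairs of ST2+ and ST2- libraries of a tissue, deviations from the group means over 7889 genes correlated with an average r of 0.0943 (10 pairs exceeded 0.1, and the lowest was 0.00836), against -0.0222 in 108 pairs of different mice. No 2 libraries of a group held identical counts (129 pairs). P-values measure the spread between pools within groups of up to 5 mice, with 1 estimate for each gene shared by all 14 groups. Alternatives were median-of-ratios factors, DESeq2 1.42.0, voom with quality weights in limma 3.58.1, mouse as a replicate block, other filters, all 70 libraries, cells sorted as a covariate and each mouse left out. After the data were seen, lungs as the reference for VAT and the loss of 2 libraries rich in other cells' markers were added.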

Additional observations from a re-analysis of the deposited data

Results flagged for a closer look

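Among 91 groups of 4 or 5 libraries, looked at for the median of the 51 ISGs and for Usp18, Slfn1, Rtp4, Iigp1, Isg15 and Ly6a, 10 held 1 library far from the rest by Dixon's ratio at the 95% level, where chance gives about 1 in 20. Usp18 accounted for 4 of them, at 72.4 CPM in colon ST2- and 44.7 CPM in skin ST2- of mouse 4, 186 CPM in spleen ST2+ of mouse 4 and 28.1 CPM in VAT ST2+ of mouse 2. Mouse 1 was high for Slfn1 in skin ST2- (52.1 CPM) and for Iigp1 in VAT ST2+ (27.6 CPM). The others were Ly6a in blood ST2- of mouse 2 (380.0 CPM), Isg15 in lungs ST2- of mouse 3 (34.3 CPM), Iigp1 in lungs ST2+ of mouse 5 (88.4 CPM) and the median of the ISGs in lungs ST2+ of mouse 2 (0.14).

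The difference between ST2+ and ST2- eTregs differed among tissues for Rtp4 (adjusted p = 0.0029) and Ifngr2 (adjusted p = 0.0185) in edgeR's interaction test.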

How the results depend on the processing

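Of 323 counts of called ISGs under alternatives, 253 were within 1.5 times of the value given and 70 were not. With voom and quality weights the counts were 4, 1, 8, 5 and 0 for ST2+ against ST2- eTregs of blood, spleen, lungs, VAT and skin, 8 for effector against central Tregs of spleen, 9 for central Tregs of lungs, 17 for ST2- eTregs of VAT, 5 and 18 for ST2+ eTregs of blood and lungs, 4 for the interaction and 12 for the mice. With all 70 libraries they were 4, 1, 5 and 0 for ST2+ against ST2- in blood, lungs, VAT and skin, 1, 1, 4 and 14 for ST2- eTregs of blood, lungs, VAT and colon, 4 for ST2+ eTregs of blood and 2 for the mice. With DESeq2 they were 4 and 4 for ST2+ against ST2- in lungs and skin, 5 for ST2+ eTregs of blood, 3 for the interaction and 8 for the mice. Cells sorted as a covariate gave 3 for ST2- eTregs of VAT and 2 for the interaction. Median-of-ratios factors and a filter of 1 CPM in 50% of libraries each gave 2 for the interaction. With lungs as the reference, VAT gave 0 in ST2- and 9 in ST2+ eTregs.

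The replicate block, which pairs the libraries of a mouse, gave 1 for skin, 1 for effector against central Tregs of spleen and 2 for the interaction, and moved no other count by over 1.5 times.

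Leaving out each mouse gave, for ST2+ against ST2-, 1 to 4 in blood, 1 to 2 in lungs, 5 to 10 in VAT and 0 to 1 in skin. It gave 0 to 1 for effector against central Tregs of lungs, 1 to 2 for central Tregs of lungs, 0 to 2 in ST2- eTregs of blood and of lungs, 4 to 13 of VAT, 17 to 19 of colon and 22 to 27 of skin. In ST2+ eTregs it gave 1 to 3 in blood, 4 to 11 in lungs, 22 to 32 in VAT, 9 to 19 in colon and 28 to 33 in skin. The interaction had 0 to 2 and the mice 1 to 5.

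Of 4804 values of single genes, 4380 held their side of the threshold and their direction, 387 were no longer past it, 20 passed newly and 17 changed sign, of log2 differences mostly near 0 or of VAT against lungs. For ST2+ against ST2-, these were Isg15 in blood with voom (0.14), Ifit3 in blood with voom (-0.0066) and without replicate 2 (-0.31), in VAT without replicate 1 (0.12) or 3 (0.0995) and in colon with voom (-0.46), and Gbp2 in colon without replicate 1 (-0.15). Ifit3 in ST2+ eTregs of blood was at -0.013 with the replicate block and -0.62 without replicate 2. With lungs as the reference, ST2- eTregs of VAT had Slfn8 at 0.066, Ifnar1 at -0.29, Tmem173 at 0.00084 and Zc3hav1 at -0.43, and ST2+ eTregs had Ifngr1 at -0.083, Ifnar1 at -0.54, Zc3hav1 at -0.24 and Ifit3 at 0.80. Over all mice left out in turn, Ifit3 lay between -0.31 and 0.84 (blood) and between -7.16 and 0.12 (VAT) for ST2+ against ST2-, Gbp2 between -0.15 and 0.53 (colon), and Ifit3 between -0.62 and 1.32 in ST2+ eTregs of blood. The cause was not tested. A gene at 1 CPM had about 2 counts in the median library, so differences of Oas2, Ifi44, Oasl1 and Mx1, each at 0 in a whole group, are imprecise.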
